A study of Mus musculus with 11 samples.

Results

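The iron handling genes described here were the 4 members of the STEAP family (Steap1, Steap2, Steap3 and Steap4) together with Tfrc, Slc11a2, Fth1, Ftl1, Slc40a1 and Ireb2, 10 of the 28222 genes in the count table. They were taken by name. Steap3 was selected on its measured level, since an earlier analysis of these libraries had found it lower in old than in young cells of batch B, and the other 9 were listed for their family or their known part in iron traffic. The differences of Steap3 are therefore given as a description, with no test, and counts of called members are over the other 9.

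The RNA came from mesenchymal stem cells (MSCs) of mouse bone, kept throughout at 2% O2, a low oxygen level close to that of their niche. The 11 libraries fell into 4 groups across 3 batches: young batch A (n = 4), young batch B (n = 2), old batch B (n = 2) and old batch C (n = 3), where young mice were 3 to 5 months old and old mice 18 to 22 months. The study's methods, which describe the young animals, used wild-type male C57BL/6N mice, cultured the cells with their bone chips and sorted them as CD45-/TER-119-/Sca-1+/CD140a+. Only batch B holds both ages, so that age and batch cannot be told apart in any other old-to-young comparison. No source says whether libraries of a group came from separate animals, and the p-values then measure the spread between these libraries only.

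Iron bound to transferrin enters a cell through the transferrin receptor, is reduced in the endosome by a STEAP reductase and leaves it through the transporter DMT1. Iron that is not used is stored in ferritin, a shell of heavy and light subunits, or leaves the cell through ferroportin. The iron regulatory proteins tie these steps together: in iron-poor cells they bind hairpins called iron responsive elements (IREs), which blocks translation when the hairpin lies in the 5′ UTR and stabilises the transcript when it lies in the 3′ UTR.

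The IREs that a strict search found in the members are shown first, because they are what the receptor, ferritin and exporter transcripts have in common. The annotated UTRs (GENCODE M21, GRCm38) were searched for an unpaired C, 5 bases paired at every position and a CAGTGN loop not ending in G. IREs that depart from this pattern are missed, so a member without a match may still hold one, and a member with matches may hold more. The search found 4 matching elements in the 3′ UTR of Tfrc and 1 in the 5′ UTR of each of Fth1, Ftl1 and Slc40a1. Such an element was found in the 5′ UTR of 0.0909% of 19800 genes and in the 3′ UTR of 0.391% of 19961 genes. Each is written 5′ to 3′ on the transcript strand with the loop in capitals, and a match describes these letters only.
Tfrc, chr16:32631219-32631247, plus strand: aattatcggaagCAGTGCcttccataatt
Tfrc, chr16:32631598-32631626, plus strand: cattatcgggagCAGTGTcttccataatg
Tfrc, chr16:32631663-32631691, plus strand: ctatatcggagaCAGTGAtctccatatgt
Tfrc, chr16:32631710-32631738, plus strand: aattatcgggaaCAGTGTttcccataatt
Fth1, chr19:9982732-9982760, plus strand: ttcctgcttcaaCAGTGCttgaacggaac
Ftl1, chr7:45459779-45459807, minus strand: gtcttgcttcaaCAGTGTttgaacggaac
Slc40a1, chr1:45925465-45925493, minus strand: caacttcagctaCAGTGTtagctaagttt

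Total counts ran from 11969336 to 20315934 per library, and levels are given as CPM, read counts scaled to a common library total after TMM factors. The counting interval (95% Wilson) was at most ±1.95% of the value for the ferritin genes and up to ±35.2% for Slc40a1, the lowest member, and it covers counting error only. All 9 MSC markers were detected in every library. Their summed level, mostly from Col1a1 and Col1a2, was 89304 to 99231 CPM in young batch A and 44633 to 75394 in young batch B. It was 39641 to 41905 CPM in old batch B and 34744 to 36786 in old batch C. The genes of the positive sort markers did not follow this sum alike. Pdgfra (CD140a) was highest in old batch C, at 267 to 287 CPM against at most 239 in the other groups. Ly6a (Sca-1) was lowest there, at 269 to 319 CPM, and highest in young batch B, at 659 to 778. The 10 leukocyte and macrophage markers were detected in every library too, although the sort selects against CD45: their summed level was 591 to 1244 CPM in young batch A, 350 to 694 in young batch B, 717 to 1027 in old batch B and 120 to 141 in old batch C. Summed osteoclast markers were 6.48 to 16.8 CPM in old batch B and at most 2.96 elsewhere. Summed adipocyte markers were 123 to 159 CPM in old batch C and at most 68.9 elsewhere, whereas the 10 erythroid markers together stayed at or below 4.17 CPM. Steap3 and Tfrc are best known for their work in the erythroid lineage. With plain total counts in place of TMM factors, the median log2 difference of all genes rose by 0.06 (old against young, batch B), 0.08 (batch B against A), 0.19 (batch C against B) and 0.29 (batch C old against batch A young), and the share of called genes that were higher rose from 31.1% to 44.8%, from 51.9% to 66.4%, from 49.6% to 62.9% and from 50.1% to 72.5%. In bulk libraries of this kind, fewer cells of a type and less RNA per cell cannot be told apart.

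Per kilobase of the principal transcript, the ferritin genes were far above the other members in every group. In young batch A, Fth1 stood at 2914 CPM per kb and Ftl1 at 1571, followed by Steap3 at 63.8 and Steap2 at 41.2, whose ranges overlapped. The remaining members of that group had 3.44 (Tfrc) to 19.8 (Steap1) CPM per kb. Steap3 had rank 3 among the members in young batch A, young batch B and old batch C, and rank 5 in old batch B, behind Steap2 and Steap1, at 25.8 against 34.0 and 33.4 CPM per kb. With the longest annotated coding transcript as the length, Steap3 kept rank 3 in the former groups and had rank 4 in old batch B, behind Steap1, while Ftl1 and not Fth1 was the highest member in old batch C.

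**Figure D1:**
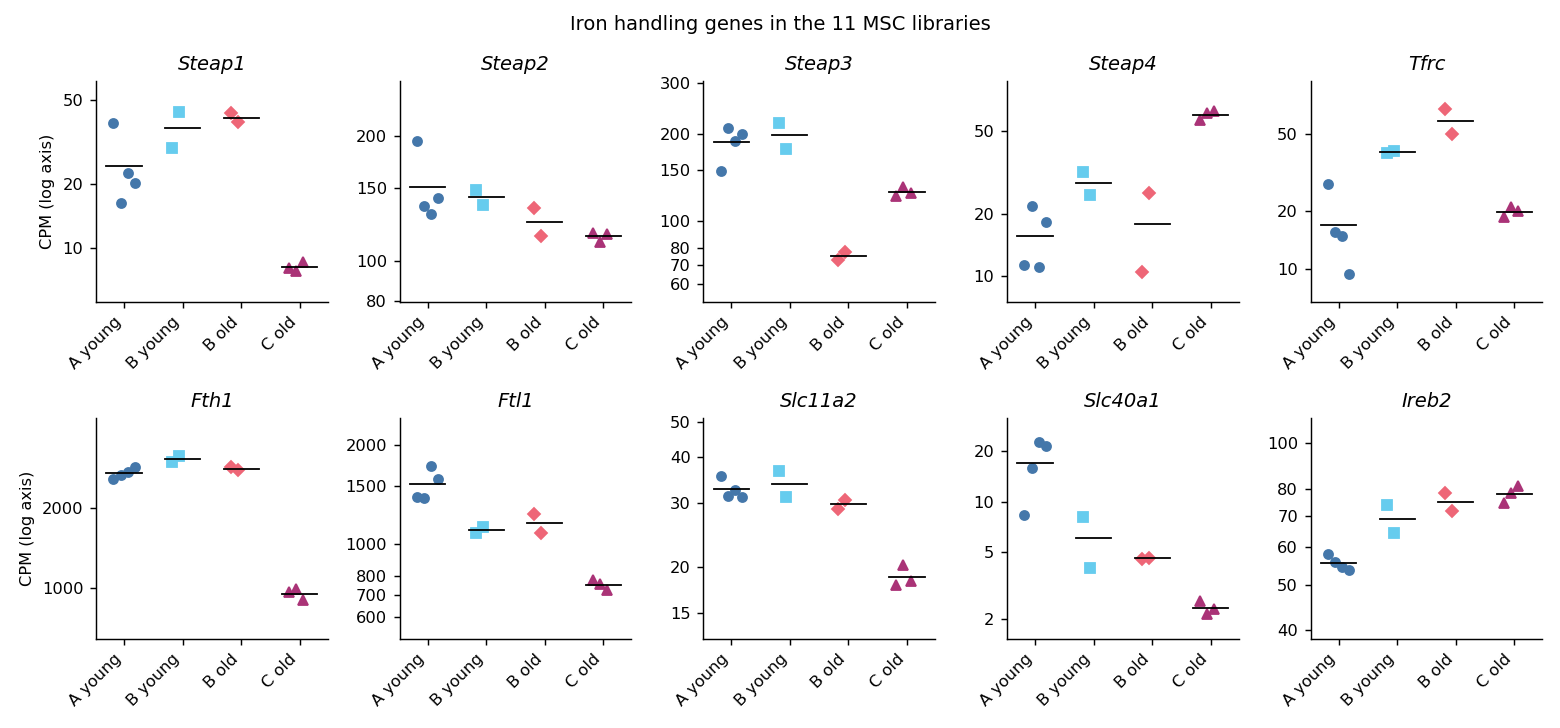
Level of each of the 10 genes (CPM, log axis, a scale of its own in each panel) in the 11 libraries by group; each point is a library and each line a group mean. Steap3 is lowest in old batch B (73.0 and 78.0 CPM), whereas Fth1, Ftl1, Slc11a2, Steap1 and Slc40a1 are lowest and Steap4 is highest in old batch C.

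Among the reductases, Steap3 (chr1:120190757-120272705, minus strand), which reduces transferrin-derived iron in the endosome, had the lowest level of all groups in old batch B. It was 149, 210, 189 and 200 CPM in young batch A, 219 and 178 in young batch B, 73.0 and 78.0 in old batch B, and 122, 131 and 124 in old batch C. The young groups overlapped each other, whereas neither old group overlapped any other group. Within batch B the old libraries were 2.61 times lower than the young ones (log2 -1.38, SE 0.15), the value for which the gene was listed. Between young batches Steap3 differed by 0.10 on the log2 scale (SE 0.15), and old batch C was 1.67 times higher than old batch B (log2 0.74, SE 0.07).

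Old batch C and young batch A share no library with batch B but differ in batch as well as age. Steap3 was 1.42 times lower in old batch C (log2 -0.50, SE 0.10), and the libraries did not overlap. This difference had been seen before and is no independent support for the one in batch B. It was smaller than the difference within batch B by 0.82 on the log2 scale (SE 0.18). With plain total counts the value between old batch C and young batch A was -0.21, beside a median of 0.31 over all genes.

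Steap1 (chr5:5736317-5749326, minus strand), a family member that lacks the reductase domain of the others, had 8.09, 7.81 and 8.64 CPM in old batch C, below every other library. It was 16.2 to 38.6 CPM in young batch A, 29.6 and 43.7 in young batch B and 43.2 and 39.1 in old batch B. Old batch C was 5.02 times lower than old batch B (log2 -2.33, SE 0.10, adjusted p = 4.5e-09), whereas the ages within batch B differed by 0.18 (SE 0.28, adjusted p = 0.792) and overlapped.

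Steap4 (chr5:7960457-7982213, plus strand), a metalloreductase known from adipose tissue and inflammation, was highest where Steap1 was lowest. Its level in old batch C was 56.3, 60.9 and 62.2 CPM, above every other library, against 11.3, 21.6, 10.99 and 18.2 in young batch A. In batch B it was 31.9 and 24.5 CPM in the young and 10.5 and 25.2 in the old libraries, which overlapped (log2 -0.65, SE 0.32, adjusted p = 0.331). Without the second of these old libraries, the fitted difference was -1.42 and passed the test. Old batch C was 4.08 times higher than young batch A (log2 2.03, SE 0.18, adjusted p = 1.2e-06) and 3.36 times higher than old batch B (log2 1.75, SE 0.23, adjusted p = 3.4e-05). Of the 5 adipocyte markers, Adipoq and Plin1 reached 8.38 to 16.2 and 3.46 to 8.66 CPM in the same libraries. They were at most 3.74 and 1.71 CPM in the other groups. Lpl, which made up most of the summed level, was 96.4 to 114 CPM against at most 56.0. Fabp4, at 13.9 to 19.1 CPM, overlapped old batch B (8.08 to 14.9), and Cfd was low, at 0.22 to 0.65 CPM against at most 0.16. The part of these markers in the Steap4 level was not tested.

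Steap2 (chr5:5664829-5694578, minus strand), a metalloreductase of the secretory pathway, varied least of the family, from 111 to 195 CPM. Of the 4 comparisons, it passed the test only in old batch C against young batch A (log2 -0.33, SE 0.12, adjusted p = 0.0279). This call was lost without any 1 of the 3 libraries of old batch C (log2 -0.35, -0.31 and -0.34) and with total counts (-0.03). Per kilobase, Steap3 made up 49.5% ± 8.7 of the summed STEAP level in young batch A (SD, n = 4), 46.5% ± 5.0 in young batch B (n = 2), 26.1% ± 1.7 in old batch B (n = 2) and 43.0% ± 1.2 in old batch C (n = 3). The share of Steap1 was 33.8% ± 1.8 in old batch B and 6.66% ± 0.33 in old batch C, where Steap4 accounted for 19.0% ± 0.7. These shares rest on the principal transcripts. With the longest coding transcript, Steap2 has 10408 bases instead of 3657 and Steap3 5158 instead of 2931. The shares of Steap1 and Steap4, whose lengths stay the same, are then larger.

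Tfrc (chr16:32608920-32632794, plus strand), the transferrin receptor, was highest in batch B. The young libraries of batch A had 27.4, 15.6, 14.8 and 9.43 CPM, those of batch B 39.9 and 40.7, the old libraries of batch B 67.1 and 49.7 and those of batch C 18.5, 20.8 and 19.9. Both batch B groups lay above all libraries of the other batches, and within batch B the old libraries lay above the young ones without passing the test (log2 0.55, SE 0.28, adjusted p = 0.36). Tfrc was 2.40 times higher in young batch B than in young batch A (log2 1.26, SE 0.27, adjusted p = 0.00921) and 2.95 times lower in old batch C than in old batch B (log2 -1.56, SE 0.12, adjusted p = 3.2e-07). Old batch C and young batch A overlapped (log2 0.28, SE 0.25, adjusted p = 0.341). That difference was 0.58 and passed the test with total counts, and it was 0.63 and passed without replicate 1 of young batch A, the library with the highest Tfrc and the lowest leukocyte markers of its group.

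Slc11a2 (chr15:100387898-100425072, minus strand) encodes DMT1, which carries ferrous iron out of the endosome. Its level was 31.1 to 35.6 CPM in young batch A, 36.6 and 31.1 in young batch B, 28.9 and 30.6 in old batch B and 17.8, 20.2 and 18.3 in old batch C. Old batch C was 1.66 times lower than young batch A (log2 -0.73, SE 0.09, adjusted p = 1.3e-05) and 1.58 times lower than old batch B (log2 -0.66, SE 0.09, adjusted p = 6.0e-05). A gene on the other strand, Gm5475, overlaps its exons but had 11 counts in all against 4696 for Slc11a2.

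Fth1 (chr19:9980598-9985098, plus strand), the heavy ferritin subunit with the ferroxidase site, was even across the 8 libraries of batches A and B and lower in the 3 of batch C. It stood at 2582, 2663, 2732 and 2852 CPM in young batch A, at 2973 and 3132 in young batch B, at 2856 and 2776 in old batch B, and at 964, 987 and 901 in old batch C. The old libraries of batch C were 2.71 times lower than young batch A (log2 -1.44, SE 0.08, adjusted p = 2.4e-08) and 2.96 times lower than old batch B (log2 -1.56, SE 0.07, adjusted p = 7.3e-09). Within batch B the ages differed by -0.11 (SE 0.12, adjusted p = 0.695).

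Ftl1 (chr7:45457944-45459884, minus strand), the light subunit, on which the iron core forms, was also lowest in old batch C, at 779, 758 and 723 CPM. It was 1392, 1383, 1728 and 1581 CPM in young batch A, 1079 and 1131 in young batch B, and 1232 and 1084 in old batch B. Old batch C was 1.92 times lower than young batch A (log2 -0.94, SE 0.09, adjusted p = 2.1e-06) and 1.53 times lower than old batch B (log2 -0.62, SE 0.08, adjusted p = 2.0e-05), and the ages of batch B overlapped (log2 0.08, SE 0.13, adjusted p = 0.817). The ferritin values carry an uncertainty from near-identical copies, since 14 other genes or pseudogenes with Fth or Ftl symbols are annotated and 2 are in the table. The larger of these, Ftl1-ps1, had 524 counts in all, 0.278% of those of Ftl1, and how reads shared between copies were assigned is not given in the sources used here.

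The subunits did not move in step. The ratio of Fth1 to Ftl1 counts was 1.79 ± 0.15 in young batch A (SD, n = 4), 2.76 ± 0.01 in young batch B (n = 2), 2.44 ± 0.17 in old batch B (n = 2) and 1.26 ± 0.03 in old batch C (n = 3), and the 4 groups did not overlap. Since this ratio is taken within a library, the scaling of the library does not enter it. Together the ferritin transcripts made up 0.352% to 0.410% of all counts in young batch A, 0.379% to 0.423% in young batch B, 0.394% to 0.412% in old batch B and 0.188% to 0.203% in old batch C, so that the share of ferritin set old batch C apart while the ratio set all 4 groups apart. Neither measure was tested.

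**Figure D2:**
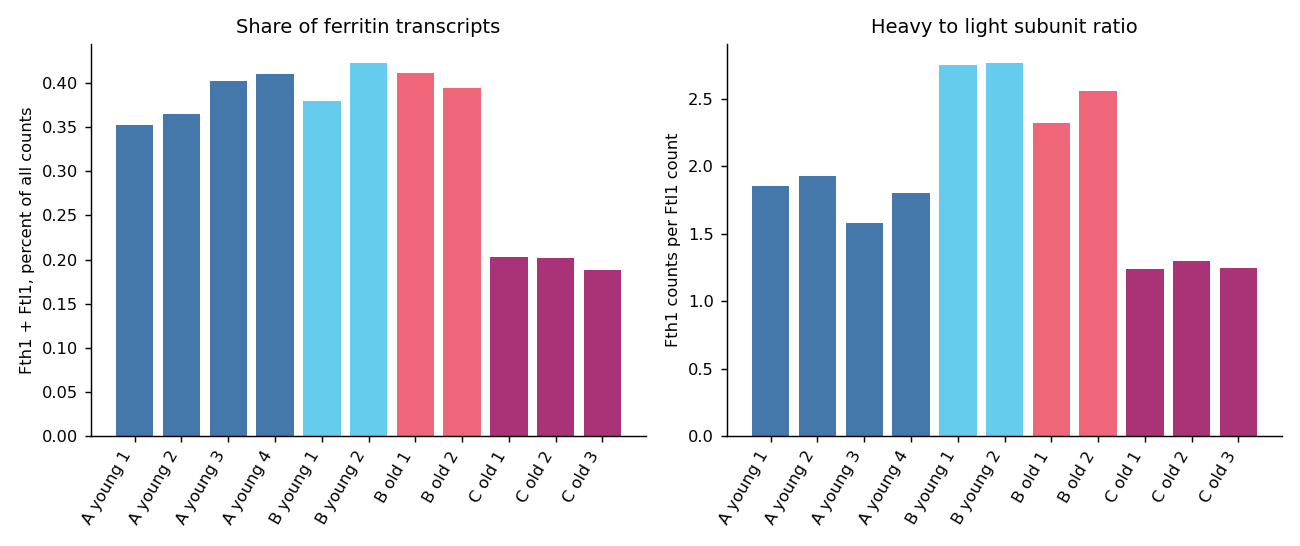
Left, Fth1 and Ftl1 counts together as a percentage of all counts in each of the 11 libraries; right, Fth1 counts per Ftl1 count (bars start at 0, colours mark the 4 groups). The share is at most 0.203% in the 3 libraries of old batch C and at least 0.352% in the other 8, while the ratio is highest in young batch B (2.76 ± 0.01) and lowest in old batch C (1.26 ± 0.03).

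Slc40a1 (chr1:45908068-45926523, minus strand), which encodes the iron exporter ferroportin and is known for its high level in macrophages, spanned the widest range of the members, 10.5-fold. The young libraries of batch A had 8.27, 15.8, 22.5 and 21.5 CPM, those of batch B 8.08 and 4.01, the old libraries of batch B 4.57 and 4.61 and those of batch C 2.58, 2.15 and 2.30. Old batch C lay below all other libraries, 6.80 times lower than young batch A (log2 -2.77, SE 0.33, adjusted p = 1.1e-05) and 1.95 times lower than old batch B (log2 -0.96, SE 0.21, adjusted p = 0.00159). The call against old batch B was lost with all libraries in one fit, 1 of 13 alternatives. Young batch B was 2.74 times lower than young batch A (log2 -1.45, SE 0.37, adjusted p = 0.018).

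The leukocyte and macrophage markers moved with Slc40a1 in part. Among the young libraries of batch A, their summed level was 591, 815, 1244 and 986 CPM in the order of the Slc40a1 values above, and in young batch B 694 and 350. In old batch B, however, the sums were 1027 and 717 CPM at an even Slc40a1 level of 4.57 and 4.61. With the mean of these markers as a covariate in the age fit, Slc40a1 was lower in old than in young libraries of batch B by 1.06 on the log2 scale and passed the test, against a value of -0.40 (SE 0.40, adjusted p = 0.661) without it. That fit draws on the libraries of all batches, and the old and young libraries of batch B overlapped in Slc40a1. Without the covariate, the value ran from -0.80 to 0.19 with single libraries left out. The part of leukocytes in the Slc40a1 level was not tested.

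**Figure D3:**
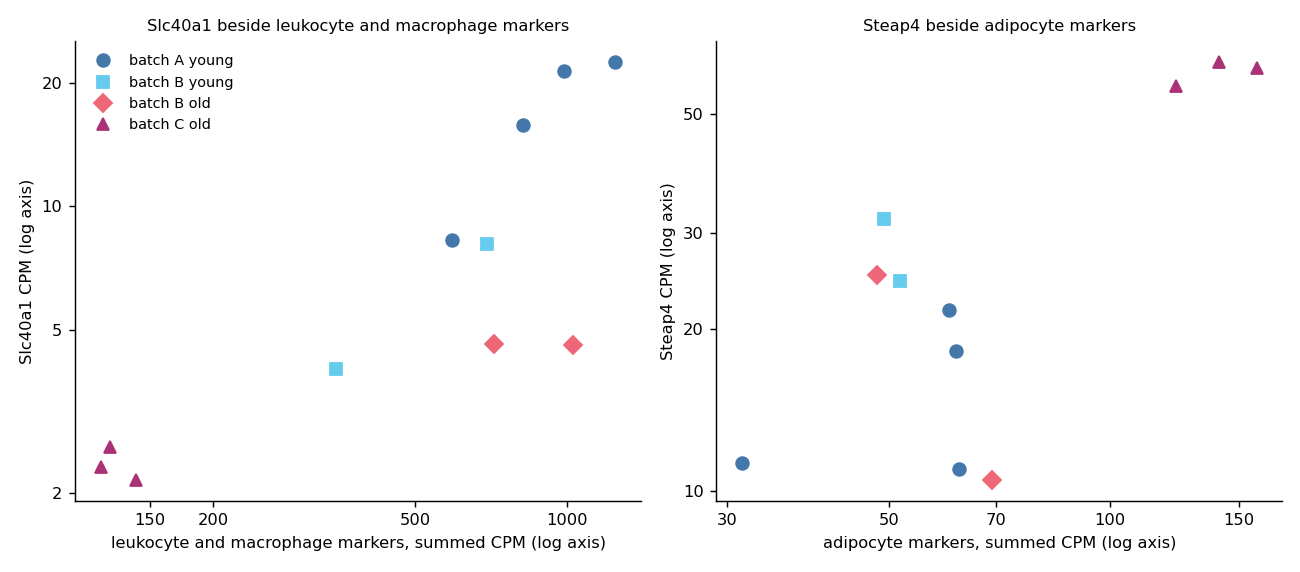
Left, Slc40a1 against the summed level of 10 leukocyte and macrophage markers; right, Steap4 against the summed level of 5 adipocyte markers (CPM, all axes logarithmic, each point a library). The 3 libraries of old batch C sit apart in both panels, with 120 to 141 CPM of leukocyte markers beside 2.15 to 2.58 CPM of Slc40a1, and 123 to 159 CPM of adipocyte markers beside 56.3 to 62.2 CPM of Steap4.

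Ireb2 (chr9:54863789-54912530, plus strand) encodes IRP2, one of the proteins that bind the IREs shown above. With TMM factors it was the steadiest member, from 53.7 to 81.0 CPM. With plain total counts it ran from 49.3 to 93.9 CPM, a wider relative range than that of Steap2 (117 to 173). The group mean with TMM factors was 55.6 ± 1.9 CPM in young batch A (SD, n = 4) and 69.1 ± 6.7 in young batch B (n = 2). It was 75.0 ± 4.8 CPM in old batch B (n = 2) and 77.9 ± 3.2 in old batch C (n = 3). Young batch A lay below all other libraries, and old batch C was 1.47 times higher than it (log2 0.55, SE 0.07, adjusted p = 1.1e-05). Old batch B overlapped both young batch B and old batch C in this transcript. Young batch B was higher than young batch A by 0.33 (SE 0.11) without passing the test (adjusted p = 0.06).

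The comparison of ages within batch B asks whether these transcripts differ with age once batch is held constant. The fit placed age and batch in one model over all 11 libraries (edgeR, quasi-likelihood test, Benjamini-Hochberg). Of the 9 members other than Steap3, 0 passed at an adjusted p of 0.05, where 2.23% of all genes tested did, and 0 had an unadjusted p under 0.05. Limma-trend and DESeq2 also called 0. The old and young libraries of batch B did not overlap in 4 of the 9, lower in old for Steap2, Fth1 and Slc11a2 and higher for Tfrc, whereas 39.8% of all genes tested did not overlap. The largest of the 9 differences were those of Steap4 and Tfrc, and the standard errors ran from 0.10 (Ireb2) to 0.40 (Slc40a1).

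**Figure D4:**
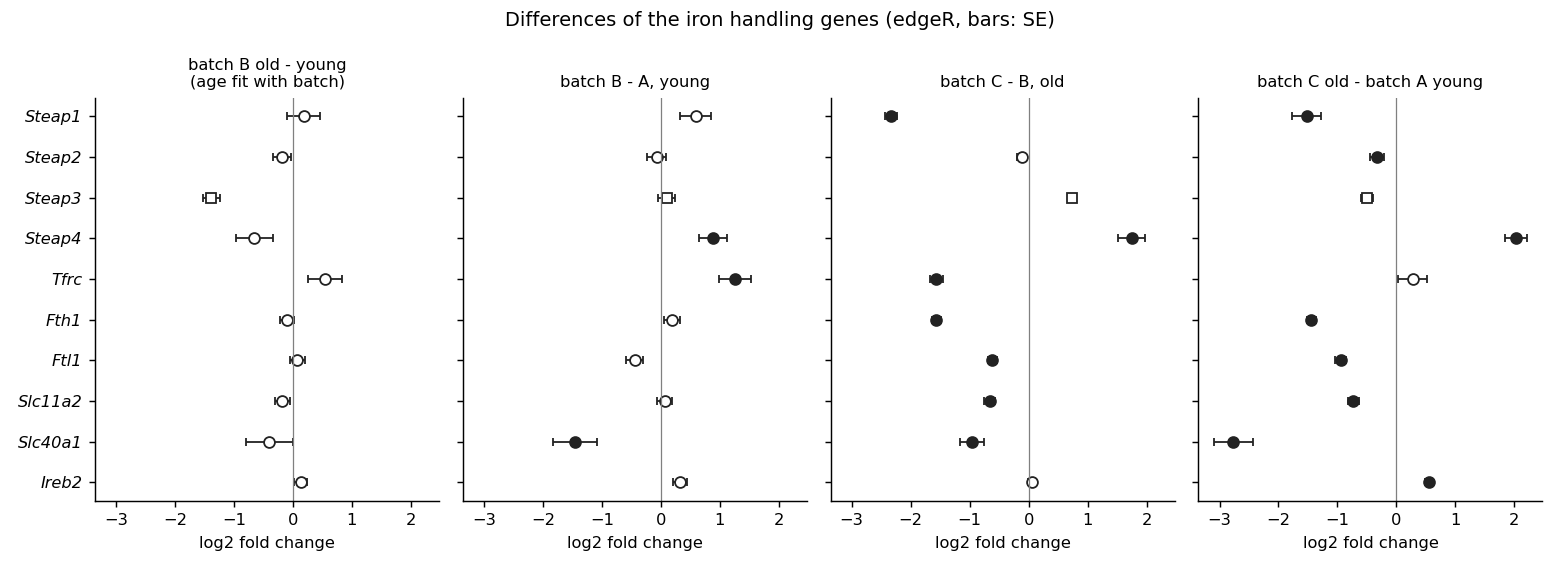
Log2 fold change of the 10 genes in 4 comparisons, with bars for the SE; filled circles passed an adjusted p of 0.05, open circles did not, and open squares mark Steap3, which was not tested. In the comparison of ages in batch B, Steap3 lies at -1.38 and all others between -0.65 and 0.55, while most members lie away from 0 in both comparisons with old batch C.

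Young batches B and A were compared to see the size of the batch difference at one age. Of the 9 members tested 3 passed, 33.3% against 18.1% of all genes: Steap4 and Tfrc were higher in batch B, a direction called for 9.39% of all genes, and Slc40a1 was lower, called for 8.71%. Steap4 was higher by 0.88 on the log2 scale (SE 0.24, adjusted p = 0.0247), and its call was lost without replicate 3 of young batch A (0.75). Its value was 0.69 without replicate 1 of young batch B, which leaves 1 library in that group. Without replicate 1 of young batch A, 5 of the 9 passed, where 19.6% of all genes did. With single libraries left out, the values ran from 1.07 to 1.62 for Tfrc and from -2.04 to -1.06 for Slc40a1. Each of the 3 calls was lost in at least 1 fit with a library left out. Ftl1 was just outside the threshold (log2 -0.45, SE 0.15, adjusted p = 0.0502) although its libraries did not overlap.

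Old batch C was compared with old batch B to see the batch difference at the other age. Here 7 of 9 members passed, 77.8% against 64.7% of all genes, with 1 higher (Steap4) and 6 lower (Steap1, Tfrc, Fth1, Ftl1, Slc11a2 and Slc40a1), where 32.1% of all genes were called higher and 32.6% lower. Steap2 and Ireb2 did not pass (log2 -0.11, SE 0.08, and 0.06, SE 0.07). With total counts 8 of the 9 passed, 2 higher and 6 lower, where 65.8% of all genes passed. The direction of Steap2 turned to 0.08 in that setting.

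Old batch C against young batch A, in which age and batch change together, had 8 of 9 members past the test, 88.9% against 63.8% of all genes. Steap4 and Ireb2 were higher, as were 32% of all genes, 6 were lower, as were 31.9%, and Tfrc did not pass. The median difference of the 9 members was -0.73 on the log2 scale beside 0.02 for all genes. With total counts 8 passed, 3 higher and 5 lower, at a median of -0.44 beside 0.31, where 66.2% of all genes passed.

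The old-to-young difference between batches C and A departed from that within batch B in 7 of the 9 members tested, where 35.7% of all genes did. Steap4 and Slc40a1 departed the furthest. For Steap4 the difference was 2.62 higher (SE 0.40, adjusted p = 0.000175) and for Slc40a1 it was 2.42 lower (log2 -2.42, SE 0.52, adjusted p = 0.00215). Batch and age cannot be told apart in this contrast.

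Further genes of iron and heme metabolism were taken from a list of 71, of which 68 were in the table (Trf, Ftmt and Fdx2 were not analysed here). Within batch B, 4 of the 65 tested passed, 6.15% beside the 2.23% of all genes, 2 in each direction. Lcn2, whose product lipocalin 2 binds iron-laden siderophores, was 23.7 ± 7.4 CPM in young and 6.43 ± 0.63 in old batch B (log2 -1.87, SE 0.25, adjusted p = 0.00114). Young batch A and old batch C had 7.51 ± 1.94 and 5.45 ± 0.27 CPM of Lcn2, so that young batch B was the group that stood apart (log2 1.66, SE 0.23, adjusted p = 0.00166, against young batch A).

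Tfr2, a second transferrin receptor known from liver and red cell precursors, was 3.74 ± 0.76 CPM in young and 8.54 ± 0.85 in old batch B (log2 1.19, SE 0.25, adjusted p = 0.0209), with 3.56 ± 0.86 in young batch A and 3.26 ± 0.35 in old batch C. Abcg2, a transporter that exports heme among other compounds, rose from 30.8 ± 3.6 to 49.6 ± 0.4 CPM (log2 0.70, SE 0.13, adjusted p = 0.00878) and was also higher in old batch C than in young batch A (36.7 ± 2.2 against 24.8 ± 2.2 CPM, log2 0.63, SE 0.09, adjusted p = 4.7e-05). Slc48a1, which moves heme out of the lysosome, was 217 ± 10 CPM in young and 155 ± 3 in old batch B (log2 -0.48, SE 0.11, adjusted p = 0.0282), and 298 ± 23 in young batch A and 88.5 ± 1.1 in old batch C (log2 -1.68, SE 0.08, adjusted p = 6.7e-09). Its call within batch B was lost in 9 of 21 alternative analyses, that of Tfr2 in 5, that of Abcg2 in 4 and that of Lcn2 in 1.

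By role, the called genes within batch B, where 2.23% of all genes passed, were 2 of 11 for iron entry (Tfr2 and Lcn2) and 2 of 10 for heme breakdown and transport (Abcg2 and Slc48a1). For iron release and the hepcidin axis 0 of 6 passed, for storage, chaperones and sensing 0 of 6, for mitochondrial iron and iron-sulfur clusters 0 of 23 and for heme synthesis 0 of 9. The values nearest to a call in these roles were those of Heph, a ferroxidase (log2 0.80, SE 0.29, adjusted p = 0.168), and Neo1, a coreceptor of hepcidin signalling (log2 -0.34, SE 0.15, adjusted p = 0.277). In heme breakdown and transport, Blvra, named here after its value was seen, was the uncalled gene nearest to a call (log2 0.49, SE 0.16, adjusted p = 0.13). Hmox1, which opens the heme ring, had a value of -0.27 (SE 0.12, adjusted p = 0.293). For Pcbp2 (log2 -0.18), Ncoa4 (-0.16), Glrx5 (0.22), Hspa9 (-0.15) and Alas1 (-0.18) no difference was called either.

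Between old batch C and young batch A 45 of 64 genes of the wider list passed, 70.3% beside 63.8% of all genes, 12 higher and 33 lower. With total counts 37 passed, 18 higher and 19 lower, so that the excess of lower genes in these counts depended on the scaling. In that setting 66.2% of all genes passed, and 72.5% of those were higher. The median of the list lay below that of all genes under both scalings, at -0.39 beside 0.02 and, with total counts, at -0.10 beside 0.31. Of the 23 mitochondrial genes 15 were lower and 3 higher, 78.3% called in all beside the 63.8% of all genes. With total counts 7 were lower and 4 higher, 47.8% beside 66.2%. The median of these genes was then -0.16 beside 0.31 for all genes. Glrx5, which passes on iron-sulfur clusters, was 56.3 ± 5.5 CPM in young batch A and 27.5 ± 1.6 in old batch C (log2 -0.96, SE 0.09, adjusted p = 1.7e-06), and Hspa9, a chaperone of cluster assembly, was lower by -0.62 (SE 0.07, adjusted p = 1.1e-05). Slc25a37, the mitochondrial iron importer mitoferrin 1, was higher in old batch C, 40.0 ± 0.7 against 21.6 ± 2.0 CPM (log2 0.96, SE 0.08, adjusted p = 9.0e-07).

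Of the 6 genes tested for iron release and the hepcidin axis, 3 were higher and 1 was lower, 66.7% beside the 63.8% of all genes. The ferroxidases that act beside ferroportin were higher, Cp at 36.5 ± 6.4 against 15.7 ± 6.3 CPM (log2 1.30, SE 0.22, adjusted p = 0.000227) and Heph at 5.75 ± 0.74 against 3.13 ± 0.37 (log2 0.95, SE 0.18, adjusted p = 0.000423), while Slc40a1 itself was lower, as given above. Bmp6, a ligand that induces hepcidin and is named here after its value was seen, was the other higher gene (log2 0.42, SE 0.17, adjusted p = 0.0477), with overlapping groups and a call lost in 7 of 15 alternative analyses. Hfe, a partner of the transferrin receptors, was lower, 17.8 ± 1.6 against 38.6 ± 4.1 CPM (log2 -1.04, SE 0.11, adjusted p = 3.3e-06). With total counts 4 of the 6 were higher and 1 lower, 83.3% called beside 66.2% of all genes.

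Of the 11 genes for iron entry, 1 was higher and 5 lower, 54.5% called beside the 63.8% of all genes. Slc22a17, a receptor for lipocalin 2, was the higher one (log2 1.85, SE 0.15, adjusted p = 4.8e-07), and Snx3, which returns the transferrin receptor to the cell surface, was lower (log2 -0.64, SE 0.07, adjusted p = 4.5e-06). With total counts 2 of the 11 were higher and 3 lower, 45.5% called beside 66.2% of all genes. In storage and sensing, the iron chaperones Pcbp1 and Pcbp2 were lower (log2 -0.43, SE 0.07, and -0.60, SE 0.07), and the call of Pcbp1 was lost with total counts. Ncoa4, which delivers ferritin for degradation, was not called (log2 -0.07, SE 0.07). In heme synthesis Ppox was higher (log2 1.12, SE 0.09, adjusted p = 3.2e-07) and Urod and Alas1 were lower (log2 -0.69, SE 0.09, and -0.52, SE 0.09). Hmox1 was lower too, at 164 ± 9 against 312 ± 19 CPM (log2 -0.86, SE 0.07, adjusted p = 7.1e-07).

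Old batch C against old batch B gave 49 called of 65, 75.4% beside 64.7% of all genes, with 10 higher and 39 lower, where 32.1% and 32.6% of all genes were called in these directions. With total counts 44 were called, 14 higher and 30 lower, where 65.8% of all genes were called and 62.9% of those were higher. In young batch B against young batch A the calls were 5 of 64, 7.81% beside 18.1% of all genes, with Lcn2 and Fbxl5 higher and Mcoln1, Hmox1 and Slc48a1 lower (Fbxl5 and Mcoln1 are named after their values were seen). With total counts 4 passed and all were higher, where 20.4% of all genes passed and 66.4% of those were higher. Fbxl5, the iron-sensing part of the ligase that degrades IRP2, had the larger value after Lcn2 (log2 0.76, SE 0.14, adjusted p = 0.00408).

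Finally, the genes whose levels ran most like Steap3 over the 11 libraries were sought among 10095 genes with a mean of at least 5 CPM. The Pearson correlation of log2 CPM was highest for Comp (0.97), Plcd1 (0.96), Tpp1 (0.95), Gas1 (0.94) and Slc41a1 (0.94), and lowest for Marc1 (-0.93), Slc26a7 (-0.93) and Actg2 (-0.92). These values describe 11 libraries that share batch, age and scaling. After the mean of each batch was subtracted they were 0.96, 0.95, 0.94, 0.94 and 0.93 for the former and -0.92, -0.91 and -0.93 for the latter. Only batch B holds both ages, so the difference for which Steap3 was listed stays in these values. They therefore give no separate support for the correlations. In all, 26 genes had a correlation of at least 0.9 with Steap3.

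Comp, a matrix protein of cartilage and tendon, was the most abundant of them. It had 4695 ± 926 CPM in young batch A (SD, n = 4), 4313 ± 936 in young batch B (n = 2), 1737 ± 116 in old batch B (n = 2) and 2953 ± 399 in old batch C (n = 3), the same order of old groups as Steap3. Gas1, a membrane protein that binds hedgehog ligands, was 837 ± 246, 970 ± 129, 359 ± 125 and 531 ± 11 CPM in the same order. Plcd1, Tpp1 and Slc41a1 had the same order of old groups with smaller differences, for example 61.6 ± 1.9, 59.0 ± 4.4, 42.1 ± 0.3 and 51.6 ± 0.5 CPM for Plcd1. Marc1, by contrast, was highest in old batch B, at 17.7 ± 1.8 CPM against 5.72 ± 2.49 in young batch B.

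**Figure D5:**
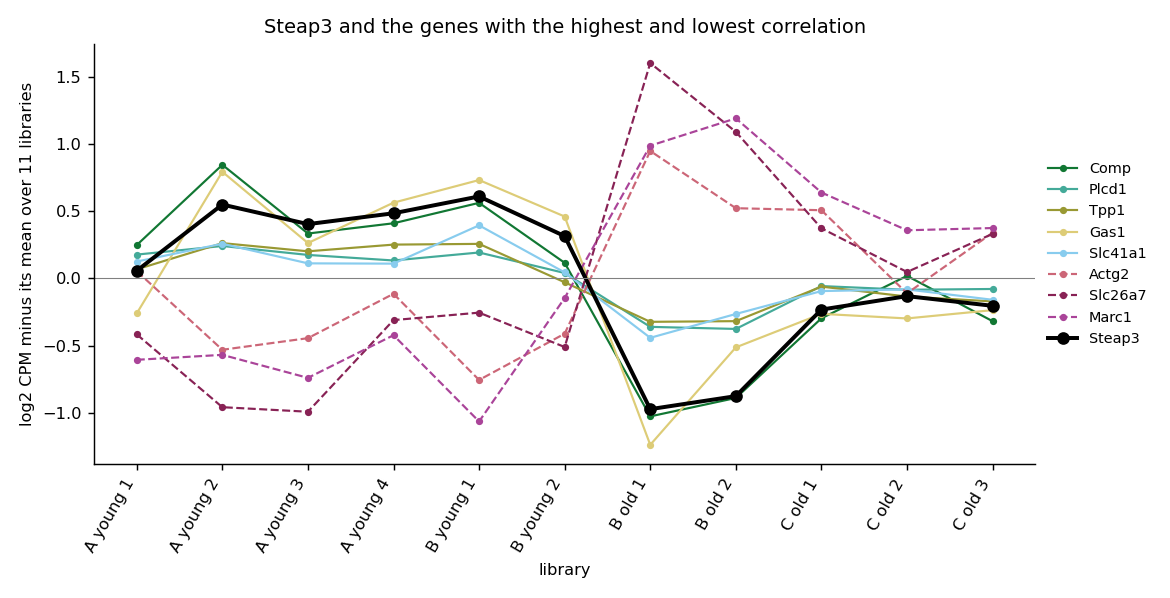
Log2 CPM of Steap3 (black) and of the 5 genes with the highest (solid lines) and the 3 with the lowest (dashed lines) correlation with it, each minus its own mean over the 11 libraries, by library. Steap3 and the solid lines are lowest in the libraries of old batch B, where the dashed lines are highest, with correlations from 0.94 to 0.97 and from -0.93 to -0.92.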

How the data were processed

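The deposited table holds raw read counts per gene for 11 libraries (polyA RNA, single-end reads). According to the study's methods, which describe its oxygen comparison, the authors aligned reads with STAR in zUMIs and made the counts with featureCounts on mm10 (GRCm38), and handling of strand and shared reads is not stated. Here edgeR 4.0.16 in R 4.3.3 was fitted on the whole table (filterByExpr minimum count 5, TMM factors, quasi-likelihood test, Benjamini-Hochberg over all genes tested, threshold 0.05, two-sided). The age fit had batch as a term over all libraries, and the other comparisons used only their own groups. Alternatives were limma-trend (limma 3.58.1, prior count 2), DESeq2 1.42.0, other scalings and filters, a replicate block and each library left out. All tests were run on simulated data first. Gene IDs were matched to GENCODE M21 (28179 of 28222). The members and lists were chosen with earlier results of these data known. Named genes of the wider list were those called within batch B and, in each of its 6 roles, the 2 genes with the smallest p within batch B and the 2 between old batch C and young batch A. Replicate numbers did not pair libraries, and no libraries were duplicates (chi-square per gene at least 3.07). By this measure the libraries of young batch B differed the most of all replicates (48.5), followed by those of old batch B (22.1). A result under the rule for named genes is not reported here. Protein sequences were not used here.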

Additional observations from a re-analysis of the deposited data

Results flagged for a closer look

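For 7 members the old-to-young difference between batches C and A departed from that within batch B by a test of the difference itself (edgeR, adjusted p of 0.05, log2 scale). The departure was 2.62 for Steap4 and 0.37 for Ireb2 (SE 0.13, adjusted p = 0.0408), both higher between batches C and A. It was -1.76 for Steap1 (SE 0.37, adjusted p = 0.00176), -1.39 for Fth1 (SE 0.15, adjusted p = 7.5e-06), -1.08 for Ftl1 (SE 0.17, adjusted p = 0.000177), -0.61 for Slc11a2 (SE 0.16, adjusted p = 0.007) and -2.42 for Slc40a1, all lower between batches C and A. Steap2 (-0.20, SE 0.20) and Tfrc (-0.33, SE 0.37) did not pass. Batch and age cannot be told apart in this contrast. Of 31 genes looked at for a library far from its group in young batch A, 0 stood past the critical value.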

How the results depend on the processing

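Within batch B, the count of called members (0 of 9) was 2 with no filter on low counts (Steap4 and Tfrc), 4 without the batch term and 1 with the leukocyte covariate (Slc40a1), and 0 to 1 when single libraries were left out (1 without replicate 2 of old batch B). The wider list count (4) was 1 in batch B alone, 11 without the batch term and 1 to 7 with single libraries left out: 1 without either old batch B library, 2 without replicate 1 and 7 without replicate 2 of young batch B. Between young batches, the member count (3) was 5 with no filter and 5 with all libraries in one fit, and 0 to 5 with single libraries left out. The wider count (5) was 12 with all libraries in one fit and 2 to 14 with single libraries left out, lowest without replicate 3 or 4 of young batch A or replicate 2 of young batch B and highest without replicate 1 of young batch B. Of all genes, 13.9% passed between young batches with no filter, 25.9% with all libraries in one fit and 19.6% without replicate 1 of young batch A. The counts with old batch C kept within 1.5 times under all alternatives run. The count of all genes called within batch B (360) was 640 with DESeq2, 657 with the leukocyte covariate, 1094 with no filter, 2641 without the batch term, 123 in batch B alone and 84 to 2007 with single libraries left out, lowest without replicate 1 of old and highest without replicate 2 of young batch B. Between young batches (2686) it was 4171 with all libraries in one fit and 511 to 4031 with single libraries left out, lowest without replicate 2 and highest without replicate 1 of young batch B. Without the batch term the age values that changed direction were -0.40 for Steap1, 1.16 for Steap4 and -0.57 for Ftl1, and with the leukocyte covariate Ftl1 was -0.037. With total counts Steap2 turned to 0.012 between young and 0.080 between old batches. With single libraries left out, values near 0 crossed it: in the age fit Steap1 ran from -0.087 to 0.49, Slc40a1 from -0.80 to 0.19 (both turned without replicate 1 of young batch B) and Ftl1 from -0.0096 to 0.16 (without replicate 1 of old batch B). Between young batches Steap2 ran from -0.13 to 0.079 (without replicate 1 of young batch A), Steap3 from -0.044 to 0.23 and Slc11a2 from -0.046 to 0.17 (both without replicate 1 of young batch B). Between old batches Steap2 ran from -0.23 to 0.0015 and Ireb2 from -0.013 to 0.12 (without replicates 1 and 2 of old batch B, respectively). The causes were not tested.

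The replicate block left the member counts at 0 within batch B and 3 between young batches, and the wider count between young batches was 1 with it, when 729 of all genes were called. Libraries with the same number did not deviate together (13 pairs, correlations of -0.11 to 0.13, 2 above 0.1), so the numbers do not pair them. With 2 libraries per age in batch B, differences of the size of the standard errors given cannot be called. Depth gives Slc40a1 the widest counting interval, although its libraries within young batches A and B differed by more than that interval.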
